A study of Mus musculus with 29 samples.

Results

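The 9 genes described here encode growth factors and receptors of the fibroblast growth factor (FGF) and platelet-derived growth factor (PDGF) families: the FGF ligands Fgf1 and Fgf2, the FGF receptors Fgfr1 and Fgfr2, the PDGF ligands Pdgfa, Pdgfb, Pdgfc and Pdgfd, and the PDGF receptor Pdgfrb. They were found by symbol among the 56748 genes of the count table, and all 9 were among the 12353 genes with enough counts to be tested. They were chosen by the values of Fgf2 in these libraries, which are higher at 22 than at 6 weeks in Ercc1Δ/- mice and lower under dietary restriction, and by membership of the same families. For this reason the levels of Fgf2 in Ercc1Δ/- mice are given as a description, with no test of genotype, age or diet. Counts of genes that passed a test in such comparisons cover the other 8 genes. The test for sex, in a model that also has terms for group, is given for Fgf2 and includes these mice.

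Libraries were made from aortic arches of 29 mice and sequenced, 1 library per mouse, to follow vascular aging and the effect of diet in mice that lack normal ERCC1, a subunit of a DNA repair nuclease. Ercc1Δ/- mice carry 1 Ercc1Δ allele and 1 null allele in every cell of the body, so that a change in the aorta cannot be told apart from a response to disease elsewhere. WT mice were their Ercc1+/+ littermates, and all animals had an F1 C57BL6J/FVB hybrid background, ate the same AIN93G pellets and lived alone in their cages. Mice fed ad libitum (AL) were sacrificed at 6 or 22 weeks of age, and mice on dietary restriction (DR) at 22 weeks, after a stepwise reduction of food that began at 7 weeks and reached 30% from 9 weeks of age. The libraries used came from 5 WT and 5 Ercc1Δ/- mice of 6 weeks, 4 WT and 4 Ercc1Δ/- mice of 22 weeks on AL, and 5 WT and 5 Ercc1Δ/- mice of 22 weeks on DR. Each group held 3 males and 2 females, except 3 males and 1 female among WT mice of 22 weeks on AL and 2 of each sex among the Ercc1Δ/- mice of that age and diet.

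Between 921167 and 9616382 deduplicated reads fell on genes in the 28 libraries used. Library 003, from a WT female of 22 weeks on AL, held 400410 and was left out, as the study did for its low counts and diverging profile. The Ercc1Δ/- libraries of the DR group were among the shallowest, with 921167 to 2572523 reads, against 2660422 to 6124471 for WT mice on DR. Ercc1 itself was lower in Ercc1Δ/- mice in each comparison (log2 fold change -1.41 at 6 weeks, -0.96 at 22 weeks on AL and -1.01 on DR). All 7 smooth muscle markers were detected, and their summed level ran from 31537 to 42607 CPM (counts per 1000000, scaled by TMM factors) in the WT groups and from 16580 to 32503 CPM in the Ercc1Δ/- groups. Macrophage markers summed to 106.9 to 252 CPM in WT mice and to 154 to 603 CPM in Ercc1Δ/- mice, whereas lymphocyte markers summed to at most 7.95 CPM. Library 016, from an Ercc1Δ/- mouse on DR, stood apart from its group for Fgf1 and Fgfr1. In bulk tissue, fewer cells of a type and less RNA per cell cannot be told apart.

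FGF ligands bind receptor tyrosine kinases together with heparan sulfate chains on the cell surface, and PDGF ligands pair as dimers that bring PDGF receptors together. Both families signal through RAS, the ERK kinases and phosphoinositide 3-kinase. In the vessel wall they are best known for driving proliferation, migration and loss of contractile features in vascular smooth muscle cells (VSMCs), and PDGF-B with its receptor recruits pericytes to capillaries. PDGF-A and PDGF-B are released as active factors, while PDGF-C and PDGF-D need a protease to cut off an extra domain before they can bind.

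The promoters of Fgf2, which led to the choice of these genes, and of Pdgfc and Pdgfd, which moved in opposite directions, are shown to compare their makeup. Each runs from 250 bases before to 50 bases after a transcription start in RefSeq (build GRCm38.p6), on the plus strand, and 5 of the 9 genes had an entry. Capitals mark matches on either strand to 5 motifs. The AP-1 site was searched as TGANTCA and the GC box, bound by SP1, as GGGCGG. The letters TATAAA stood for the TATA box and GCGNGGGCG for the EGR site, which may overlap a GC box. The CArG box is the motif of serum response factor.
Fgf2, chr3:37348403-37348702: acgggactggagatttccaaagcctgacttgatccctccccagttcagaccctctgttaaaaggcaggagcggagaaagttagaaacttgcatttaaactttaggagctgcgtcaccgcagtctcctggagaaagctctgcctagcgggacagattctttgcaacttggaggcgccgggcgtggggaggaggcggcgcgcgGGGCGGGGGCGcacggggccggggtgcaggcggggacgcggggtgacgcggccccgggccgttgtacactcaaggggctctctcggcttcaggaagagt
Pdgfc, chr3:81036166-81036465: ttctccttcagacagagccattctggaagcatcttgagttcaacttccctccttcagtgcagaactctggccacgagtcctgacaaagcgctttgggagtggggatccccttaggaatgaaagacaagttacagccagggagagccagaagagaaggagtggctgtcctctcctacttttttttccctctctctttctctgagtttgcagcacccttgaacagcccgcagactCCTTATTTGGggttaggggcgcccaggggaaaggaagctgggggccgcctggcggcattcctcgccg
Pdgfd, chr9:6168236-6168535: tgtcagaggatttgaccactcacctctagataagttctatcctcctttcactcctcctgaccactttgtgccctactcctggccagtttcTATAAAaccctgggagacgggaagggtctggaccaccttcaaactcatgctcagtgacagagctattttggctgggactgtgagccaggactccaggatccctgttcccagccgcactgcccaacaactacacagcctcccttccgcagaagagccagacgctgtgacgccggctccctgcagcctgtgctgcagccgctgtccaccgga
The Fgf2 window was 62.7% G or C and held 1 GC box that overlaps 1 EGR site. The Pdgfc window held a CArG box beginning at position -17 and the Pdgfd window a TATA box at -160, counting the first transcribed base as 0. Among all 32851 promoters of this length, 35.7% held a GC box, 5.55% an EGR site, 1.63% a CArG box, 13.6% a TATA box and 7.81% an AP-1 site, and none of these 3 windows held the last. A match of letters is a description and does not show that a factor binds there.

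Per kb of exon, the receptors Pdgfrb and Fgfr1 led. Mean levels over the 28 libraries were 46.3 CPM per kb of exon for Pdgfrb, 28.1 for Fgfr1, 19.6 for Pdgfa, 16.7 for Fgf2, 10.8 for Pdgfd, 5.27 for Fgf1, 4.93 for Pdgfc, 4.61 for Fgfr2 and 3.74 for Pdgfb. The means of Fgf1, Pdgfc and Fgfr2 lay close together, and per kb the ranges over libraries of every pair of neighbours in this order overlapped. Exon lengths were read from GENCODE gene models on GRCm39, a newer release than the one behind the counts. Raw counts behind these levels ran from 280 to 4108 per library for Pdgfrb, but from only 5 to 218 for Pdgfb, whose values are the least precise of the 9. Reads were counted over the whole gene body, and per kb of gene the order was another, with Pdgfrb first (9.39), Pdgfa (6.10) ahead of Fgfr1 (5.69), Pdgfb (0.83) ahead of Pdgfd (0.47), and Fgfr2 last. The exon length of Fgfr2 comes from a gene model that also shares exonic bases with Ctbp2, so its place in either order is uncertain. The plot of levels by mouse shows each gene on its own scale.

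**Figure D1:**
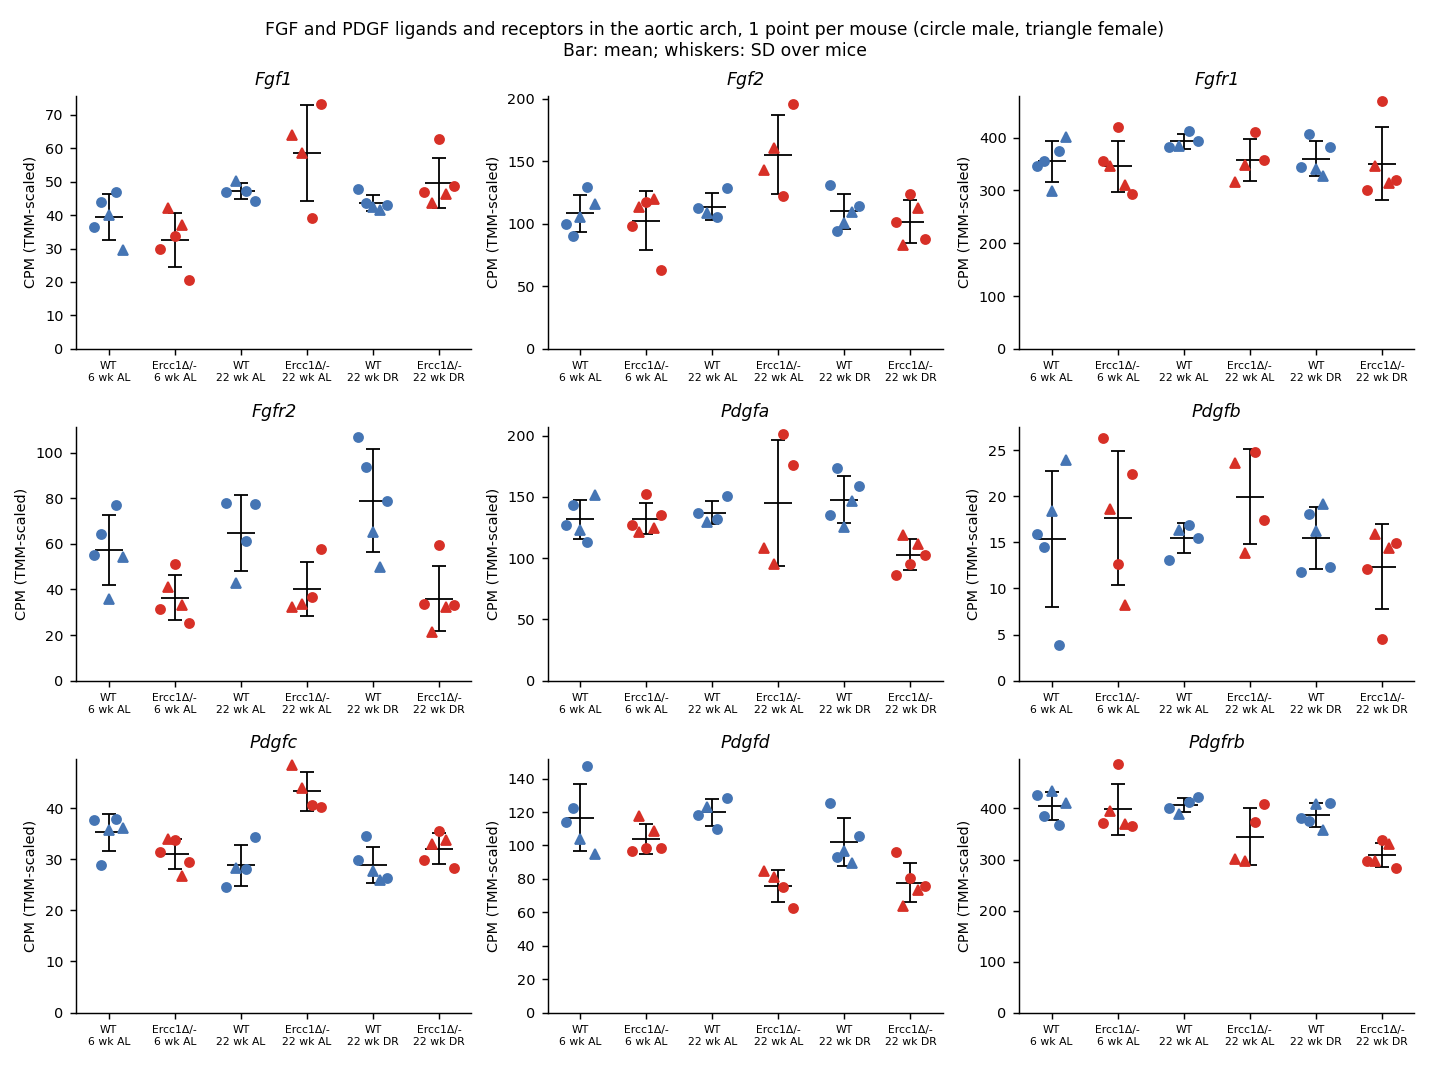
Level of each FGF and PDGF gene (CPM, TMM-scaled; y axes start at 0) in the 6 groups, with 1 point per mouse (blue WT, red Ercc1Δ/-; circles male, triangles female), the mean as a bar and the SD as whiskers. In Ercc1Δ/- mice of 22 weeks on AL, Pdgfc sat between 40.2 and 48.4 CPM, above each WT mouse, and Pdgfd between 62.4 and 84.6 CPM, below each WT mouse, while Fgfr2 was lowest on average in the Ercc1Δ/- groups.

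Fgf2 (ENSMUSG00000037225, GRCm39 chr3:37402473-37464257, plus strand) encodes basic FGF, which is stored on heparan sulfate in the matrix. In the 5 WT mice of 6 weeks it stood at 90.3, 100.1, 105, 116 and 130 CPM, and in the 4 WT mice of 22 weeks on AL at 105, 108, 112 and 129 CPM. These 2 groups overlapped fully, and edgeR's quasi-likelihood test gave no difference with age in WT mice (log2 fold change 0.10, SE 0.16, adjusted p = 0.938). The Ercc1Δ/- mice had 63.3, 98.5, 113, 118 and 120.0 CPM at 6 weeks and 122, 143, 161 and 196 CPM at 22 weeks on AL. The 4 older mutants were therefore all above the 5 younger ones, by 0.58 on the log2 scale (SE 0.16), which is the difference that led to the choice of this gene.

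Under DR, Fgf2 stood at 82.8, 87.9, 102, 113 and 124 CPM in Ercc1Δ/- mice. These values overlap those of the AL-fed mutants by 1 pair of mice and have a log2 difference of -0.60 (SE 0.13), again as a description. In WT mice DR left 94.2, 101, 109.7, 114 and 131 CPM, and the diets were not told apart (log2 fold change -0.04, SE 0.12, 95% interval -0.29 to 0.21, adjusted p = 0.940). The fitted genotype difference of Fgf2 was -0.06 at 6 weeks, 0.42 at 22 weeks on AL and -0.10 on DR. No sex difference passed (-0.09 in mice of 22 weeks, SE 0.09, adjusted p = 0.756). The Ercc1Δ/- mice of 22 weeks on AL held the highest mean, 155 ± 31.3 CPM (SD, n = 4), while the other 5 groups had means of 102 to 114 CPM.

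Fgf2 shares exons with a gene on the opposite strand, Nudt6, a nudix hydrolase long known as the Fgf2 antisense gene, over 3073 of its 6837 exonic bases. Whether the counting used strand is not given in the sources used here, and reads that fit both genes may have been set aside as ambiguous. Nudt6 was at 0.75 to 10.3 CPM over the libraries, far below Fgf2, and it passed the test in no comparison. Its largest fitted change was 0.69 under DR in Ercc1Δ/- mice (SE 0.33, adjusted p = 0.329). On the same strand as Fgf2, the noncoding RNA Gm43439 shares 255 exonic bases with it, which knowing the strand cannot separate. Gm43439 held 0 counts in each library. Another antisense transcript, Fgf2os, shares no exonic base with Fgf2 and averaged 2.77 ± 1.07 CPM in AL-fed Ercc1Δ/- mice of 22 weeks (SD, n = 4) and 0.57 to 1.03 CPM in the other groups, on at most 11 counts per library, which is too few for a test.

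Over the 28 libraries, the tested genes outside the families whose log2 levels were most like that of Fgf2 were Dnm3os (Pearson r = 0.72), Abcc9 (0.71), Ints12 (0.70), Gnl3l (0.69) and Prickle2 (0.68). Abcc9, a subunit of vascular potassium channels, is one of the pericyte markers used here. Among the FGF and PDGF genes the closest to Fgf2 was Fgf1 (0.67), followed by Pdgfc (0.50). These correlations include the group differences and shared depth of the libraries and are a description.

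Fgf1 (ENSMUSG00000036585, GRCm39 chr18:38971717-39077186, minus strand) encodes acidic FGF, a ligand for all FGF receptors. In Ercc1Δ/- mice it rose with age. Its values were 20.7, 29.7, 33.7, 37.1 and 42.0 CPM at 6 weeks and 39.1, 58.6, 63.9 and 73.1 CPM at 22 weeks on AL, with 1 older mouse inside the range of the younger ones. The difference was 0.83 on the log2 scale (SE 0.17, adjusted p = 0.00560), a 1.78-fold rise. It remained a differentially expressed gene (DEG; adjusted p up to 0.05 and a change of at least 1.2-fold) when each of the 9 libraries was left out, with adjusted p from 0.00145 to 0.0349. In WT mice the means were 39.4 ± 6.79 and 47.2 ± 2.41 CPM (SD, n = 5 and 4), a log2 change of 0.31 (SE 0.17, adjusted p = 0.648). The test of the difference between the genotypes in this age change did not pass either (0.52, SE 0.24, 95% interval 0.02 to 1.02, adjusted p = 0.424).

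DR and genotype moved Fgf1 less. In Ercc1Δ/- mice DR gave 43.5, 46.3, 47.0, 48.8 and 62.7 CPM, the last in library 016, and the log2 change was -0.25 (SE 0.14, adjusted p = 0.399), or -0.34 without that library (adjusted p = 0.216). WT mice on DR lay close together, between 41.4 and 47.9 CPM. At 22 weeks the genotypes on AL differed by 0.30 (SE 0.18, adjusted p = 0.308), and on DR by 0.19 (SE 0.13, adjusted p = 0.368). Fgf1 shares no exon with another annotated gene, but its gene body shares 51676 bases with a noncoding RNA on the opposite strand, Gm5820. Creg1 (r = 0.82), Riok3 (0.82) and Ric3 (0.81) were the genes with the most similar levels.

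**Figure D2:**
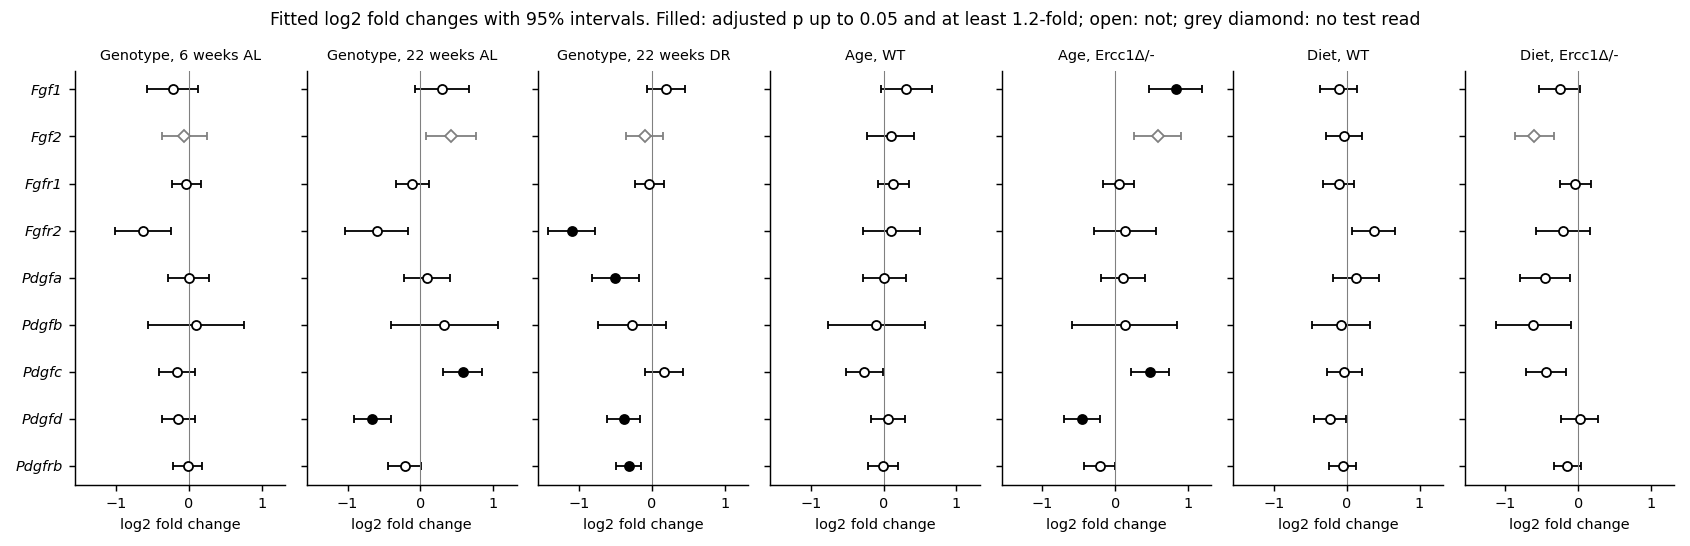
Fitted log2 fold change (x axis) of the 9 genes (y axis) in 7 comparisons, with 95% intervals. Filled points passed an adjusted p of 0.05 and a 1.2-fold change, open points did not, and grey diamonds are Fgf2 where no test is read. Filled points stand for Pdgfc and Pdgfd at 22 weeks on AL, for Fgf1, Pdgfc and Pdgfd with age in Ercc1Δ/- mice, and for 4 genes, all lower, with genotype on DR.

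Fgfr2 (ENSMUSG00000030849, on the minus strand of chromosome 7) encodes an FGF receptor whose splice forms serve epithelium and mesenchyme. It was lower in Ercc1Δ/- mice on DR. WT mice on DR had 49.8, 65.1, 78.7, 93.8 and 106.8 CPM, and Ercc1Δ/- mice on DR 21.2, 32.4, 33.4, 33.6 and 59.4 CPM. Only 1 mutant, library 016, reached into the WT range. The log2 difference was -1.10 (SE 0.16, 95% interval -1.43 to -0.78, adjusted p = 4.86e-05), a level 2.15-fold lower in the mutants. All 10 fits without 1 library called it, with adjusted p from 6.34e-06 to 3.31e-04, and without library 016 the difference was -1.27.

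On AL the same gene had 35.8, 54.0, 55.3, 64.3 and 77.1 CPM in WT and 25.3, 31.3, 33.1, 41.0 and 51.2 CPM in Ercc1Δ/- mice at 6 weeks. At 22 weeks it had 42.8, 61.4, 77.4 and 78.1 CPM in WT and 32.3, 33.7, 36.9 and 57.7 CPM in Ercc1Δ/- mice. The groups overlapped at both ages, and the differences of -0.63 (SE 0.18, adjusted p = 0.102) and -0.60 (SE 0.21, adjusted p = 0.0677) did not pass. They passed with DESeq2 in place of edgeR, and in edgeR without 1 mutant library each (008 at 6 weeks, adjusted p = 0.0398, and 026 at 22 weeks, adjusted p = 0.0365). Whether diet changes the genotype difference was tested as an interaction, which was -0.58 (SE 0.23, adjusted p = 0.471). Age and diet alone did not pass for Fgfr2 in either genotype, the largest change being 0.37 under DR in WT mice (SE 0.14, adjusted p = 0.249).

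Fgfr2 was also the 1 gene of the 9 that passed a test for sex. In the fit over mice of 22 weeks, females were lower than males (log2 difference -0.65, SE 0.12, adjusted p = 0.00681), where 0.947% of all tested genes passed. Females averaged 57.5 CPM and males 93.1 CPM among WT mice on DR, and 26.8 and 42.2 CPM among Ercc1Δ/- mice on DR. Among WT mice of 22 weeks on AL the 1 female stood at 42.8 CPM and the 3 males between 61.4 and 78.1 CPM. In 5 of the 6 groups every female lay below every male, the exception being Ercc1Δ/- mice of 6 weeks. Each group held only 1 to 3 mice of a sex, and the share of all tested genes separated in this way was not computed. The call for sex was lost in the test against 1.2-fold and in a fit over all 6 groups. The AL fit gave -0.38 with an adjusted p of 0.837, and 0.138% of genes passed there.

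The annotation used here gives Fgfr2 a span of 2961609 bases that takes in other genes, so that its gene length cannot be used as a scale. Dmpk (r = 0.86), Zfand3 (0.86) and Fam110b (0.85) followed its level most closely. Fgfr1 (ENSMUSG00000031565, GRCm39 chr8:26003670-26066824, plus strand), the main FGF receptor of mesenchymal cells, had near-equal means. Its group means lay between 346 and 393 CPM, and it passed the test in no comparison, with fitted changes from -0.11 to 0.13 in the 7 comparisons between groups. Library 016 was the highest of all 28 at 470.3 CPM, while the other 4 Ercc1Δ/- mice on DR had 300.3 to 347 CPM. Unk (r = 0.81), Plxnb2 (0.79) and Faxc (0.75) had the levels most like it.

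Pdgfc (ENSMUSG00000028019, GRCm39 chr3:80943668-81121473, plus strand) and Pdgfd (ENSMUSG00000032006, GRCm39 chr9:6168240-6379265, plus strand) encode the PDGF ligands that need cleavage. They moved in opposite directions in AL-fed Ercc1Δ/- mice of 22 weeks. Against WT mice of that age, Pdgfc was 1.49-fold higher (log2 fold change 0.58, SE 0.13, adjusted p = 0.00529) and Pdgfd 1.58-fold lower (-0.66, SE 0.12, adjusted p = 0.00110). These were the 2 DEGs among the 8 genes tested in this comparison, in which 12.0% of all tested genes were DEGs. Both calls held when each of the 8 libraries was left out, with adjusted p of at most 0.0335 for Pdgfc and 0.00725 for Pdgfd. The Pdgfc call was lost when all libraries were thinned to the depth of the smallest and in a test against the 1.2-fold change itself. Pdgfc shares 668 of its 6699 exonic bases with an antisense RNA, Gm16000, which held at most 1 count per library.

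The values behind this are separated by genotype. Pdgfc had 24.6, 28.2, 28.2 and 34.3 CPM in WT and 40.2, 40.6, 43.9 and 48.4 CPM in Ercc1Δ/- mice. Pdgfd had 109.6, 118, 123 and 128 CPM in WT and 62.4, 75.2, 81.0 and 84.6 CPM in Ercc1Δ/- mice. Neither gene overlapped between the genotypes, which was so for 18.7% of all tested genes. At 6 weeks the genotypes overlapped for both, with Pdgfc at 28.9 to 37.8 CPM in WT and 26.7 to 33.9 CPM in Ercc1Δ/- mice, and Pdgfd at 95.1 to 147 and 96.6 to 117 CPM. None of the 8 genes tested was a DEG at 6 weeks, where 1.71% of all tested genes were.

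With age in Ercc1Δ/- mice, Pdgfc rose by 0.48 on the log2 scale (SE 0.13, adjusted p = 0.0271) and Pdgfd fell by 0.45 (SE 0.12, adjusted p = 0.0266). With Fgf1 they made 3 DEGs among 8 genes, against 4.66% of all tested genes. The groups did not overlap for either gene, which held for 6.82% of all genes. This comparison shares the AL-fed mutants of 22 weeks with the comparison of genotypes, so the results of the pair are not independent. Both calls were lost in some of the 9 fits that left out 1 library. Over these fits the log2 change was 0.41 to 0.53 for Pdgfc and -0.51 to -0.37 for Pdgfd. Pdgfc was lost without library 004, 005 or 023 (adjusted p up to 0.128), and Pdgfd without 005, 008, 013, 023 or 026 (adjusted p up to 0.108). Both were also lost with library 003 added, after thinning and in the test against 1.2-fold. Pdgfc was further lost without a filter and with only the compared groups in the fit. In WT mice none of the 9 genes was a DEG with age, and 0.235% of all tested genes were. There, Pdgfc averaged 35.2 ± 3.67 and 28.8 ± 4.00 CPM at 6 and 22 weeks (SD, n = 5 and 4, log2 fold change -0.26, SE 0.12, adjusted p = 0.546).

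The age change differed between genotypes for Pdgfc (interaction 0.74, SE 0.18, adjusted p = 0.0458), where 0.842% of all tested genes passed. This call was kept in 4 of the 18 fits that left out 1 library, those without 009, 015, 025 or 027. The other fits lost it, with adjusted p up to 0.159. It was also lost without a filter, with library 003 added and after thinning. For Pdgfd the interaction was -0.51 (SE 0.16, adjusted p = 0.180). On DR, Pdgfc stood at 28.3, 29.8, 32.9, 33.8 and 35.5 CPM in Ercc1Δ/- mice, all below the 4 mutants on AL, and 5.02% of all genes had groups apart in this comparison. The change of -0.44 (SE 0.14, adjusted p = 0.0944) did not pass. Pdgfd had nearly the same level on both diets in the mutants, 77.8 ± 11.8 CPM on DR (SD, n = 5) and 75.8 ± 9.74 CPM on AL (SD, n = 4), with an interval of the log2 change from -0.23 to 0.27.

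None of the 8 genes tested was a DEG for DR in Ercc1Δ/- mice, where 1.64% of all tested genes were, and none of the 9 for DR in WT mice, where 1.30% were. No gene of the 8 passed the genotype by diet interaction, and 0.0971% of all tested genes did. On DR, Pdgfd was again lower in Ercc1Δ/- than in WT mice. The values were 63.7, 73.2, 75.5, 80.8 and 95.9 CPM against 89.3, 93.4, 96.9, 106 and 125 CPM, with 1 mutant inside the WT range (log2 fold change -0.39, SE 0.11, adjusted p = 0.0179). This call was lost without WT library 007 (adjusted p = 0.0823). It was also lost after thinning, in the test against 1.2-fold and with the excluded low-count WT library added. Pdgfc did not differ by a passing test on DR (0.17, SE 0.13, adjusted p = 0.441).

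Seen as a ratio per exonic base, a measure chosen after the values were seen and given without a test, Pdgfc stood to Pdgfd at 0.743 to 0.887 in AL-fed Ercc1Δ/- mice of 22 weeks. The Ercc1Δ/- mice on DR had 0.428 to 0.711, and the younger ones 0.339 to 0.471. WT mice had 0.325 to 0.521 at 6 weeks, 0.287 to 0.368 at 22 weeks on AL and 0.327 to 0.509 on DR. The 4 old AL-fed mutants thus had a higher ratio than each of the other 24 mice. Pdgfc followed Spp1 (r = 0.76), Fxyd5 (0.75) and Mgp (0.71) most closely over the libraries, and Pdgfd followed Cpq (0.90), Cacna2d1 (0.89) and Cpe (0.88). Spp1 encodes osteopontin and Mgp a matrix inhibitor of calcification.

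**Figure D3:**
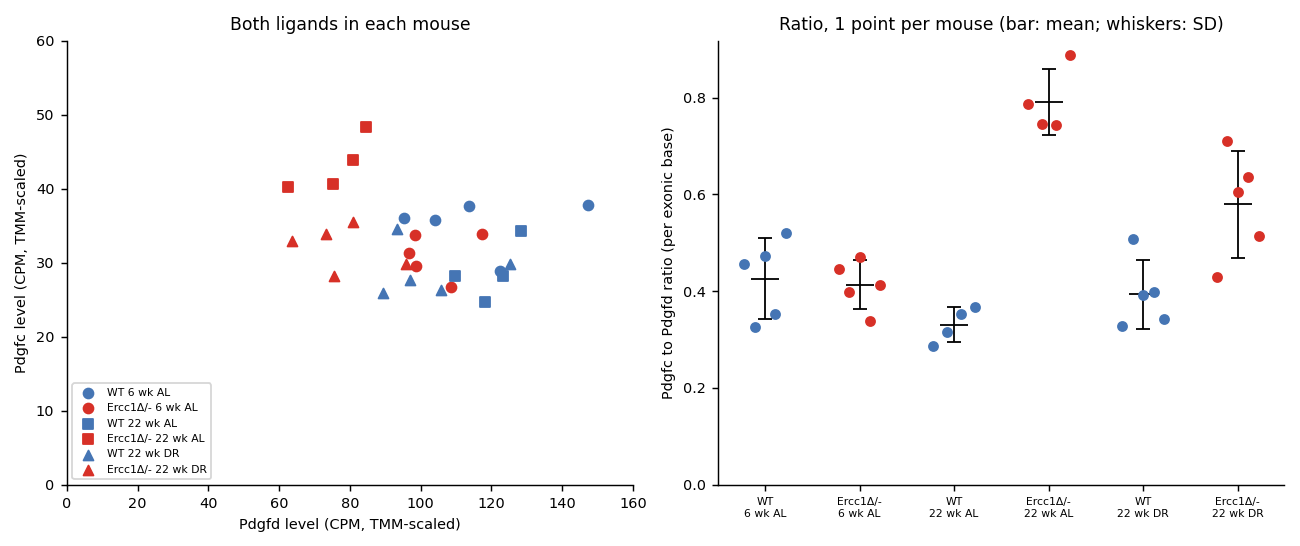
Left, level of Pdgfc against Pdgfd (CPM, TMM-scaled) with 1 point per mouse, coloured by genotype (blue WT, red Ercc1Δ/-) and shaped by age and diet (circle 6 weeks AL, square 22 weeks AL, triangle 22 weeks DR). Right, the ratio of both per exonic base by group, with the mean as a bar and the SD as whiskers. The 4 AL-fed mutants of 22 weeks have ratios of 0.743 to 0.887, above the other 24 mice.

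Markers of other cells moved along with these ligands. In AL-fed mice of 22 weeks, 6 of 7 smooth muscle markers were lower in Ercc1Δ/- than in WT mice (median log2 fold change -0.77, summed level 16580 to 25713 against 31581 to 37889 CPM), and 5 of 7 macrophage markers were higher (median 1.39, summed level 332 to 603 against 177 to 252 CPM). Also lower by genotype were 2 of 5 tested pericyte markers (Cspg4 and Rgs5, summed level 1275 to 1435 against 1823 to 2500 CPM). The other 3 pericyte markers had log2 changes above 0 (median of the list 0.01). Of the 6 fibroblast markers, 2 were lower (Col14a1 and Pi16, summed level 2594 to 4020 against 3150 to 3881 CPM) and 4 had changes above 0 (median 0.13). In this comparison 12.0% of all tested genes were DEGs. Mitochondrial genes took 5.37% to 5.96% of counts in these mutants and 2.47% to 3.72% in the WT mice. With age in the mutants, where 4.66% of all tested genes were DEGs, 3 of 7 macrophage markers rose and 1 of 7 smooth muscle markers fell. Of the 6 fibroblast markers 2 fell (Col14a1 and Pi16), with 3 log2 changes above 0 and 3 below over the list (median -0.11). Under DR in the mutants, where 1.64% of all tested genes were DEGs, 4 of 7 macrophage markers fell (median -0.98), to a summed level of 229 to 401 CPM. No smooth muscle marker passed in that comparison. The part of these shifts in the levels of the FGF and PDGF genes was not tested.

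Pdgfa (ENSMUSG00000025856, GRCm39 chr5:138961758-138983435, minus strand) encodes a ligand that acts through PDGF receptor alpha. On DR it was lower in Ercc1Δ/- mice, at 86.3, 94.97, 103, 112 and 119 CPM, than in WT mice, at 125, 135, 147, 159 and 173 CPM. The groups did not overlap, as was the case for 8.32% of all tested genes, and the log2 difference was -0.51 (SE 0.15, adjusted p = 0.0353). The call was lost when any of 6 libraries (006, 010, 016, 021, 028 or 029) was left out (adjusted p up to 0.105). It was also lost without the sex term and in the test against 1.2-fold. With Fgfr2, Pdgfd and Pdgfrb this made 4 DEGs, all lower, among the 8 genes tested for genotype on DR, where 13.0% of all tested genes were DEGs and 7.03% were lower.

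At 22 weeks on AL, Pdgfa split the mutants. The 2 females had 95.4 and 108 CPM and the 2 males 176 and 201 CPM, whereas the 4 WT mice lay between 129 and 151 CPM. The genotype difference there was 0.09 (SE 0.15, adjusted p = 0.748). Whether sex plays a part in that split was not tested, and the sex term over all mice of 22 weeks was -0.23 (SE 0.12, adjusted p = 0.407). Pdgfa shares 2552 exonic bases with an antisense RNA, 6330403L08Rik, which was itself lower in the mutants on DR (-0.88, SE 0.13, adjusted p = 7.61e-05), at 25.6 ± 5.36 against 48.0 ± 6.38 CPM (SD, n = 5 each). Reads of the pair may not be told apart if the counting ignored strand. Lmna (r = 0.80), 2200002D01Rik (0.79) and Ccdc102a (0.77) followed Pdgfa most closely.

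Pdgfb (ENSMUSG00000000489, GRCm39 chr15:79880009-79899181, minus strand), the ligand that endothelium and platelets use to attract pericytes and VSMCs, was a DEG in no comparison. Its group means lay between 12.3 and 19.9 CPM, and single mice between 3.86 and 26.3 CPM. The 95% interval of its log2 change with age in Ercc1Δ/- mice ran from -0.59 to 0.85. A change of 1.2-fold was therefore not detectable for Pdgfb there at this depth and spread. Under DR in Ercc1Δ/- mice its log2 change was -0.61 (SE 0.25, adjusted p = 0.225). Serac1 (r = 0.76), N4bp3 (0.74) and Ptges2 (0.74) were most like it in level.

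Pdgfrb (ENSMUSG00000024620, GRCm39 chr18:61178212-61218133, plus strand) encodes PDGF receptor beta, the receptor of VSMCs and pericytes. It was lower in Ercc1Δ/- mice on DR, at 283, 297, 298, 330.3 and 338 CPM, than in WT mice on DR, at 358, 376, 382, 409.7 and 411 CPM. The groups did not overlap, which was so for 8.32% of all tested genes. The log2 difference was -0.32 (SE 0.09, adjusted p = 0.0127), a level 1.25-fold lower. The call held without each of the 10 libraries in turn (adjusted p from 0.00644 to 0.0488) but not after thinning to equal depth, with library 003 added, or in the test against 1.2-fold itself. On AL at 22 weeks the mutants had 297, 300.2, 374 and 409 CPM against 390 to 422 CPM in WT mice (-0.22, SE 0.11, adjusted p = 0.203), and at 6 weeks the genotypes overlapped, at 366 to 486 against 368 to 434 CPM in WT mice.

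Markers of smooth muscle, which carries this receptor, differed in the same comparison. All 7 smooth muscle markers were lower in Ercc1Δ/- mice on DR (median -0.61, summed level 23251 to 25068 against 32752 to 42607 CPM), and 1 of 5 tested pericyte markers was lower (median -0.13, summed level 1330 to 1761 against 1737 to 2274 CPM). Macrophage markers were higher for 3 of 7 and endothelial markers for 3 of 7. Of 5 tested heart muscle markers, 1 was higher (Tnnt2), with 4 log2 changes above 0 and 1 below. Their summed level was 246 to 588 against 134 to 233 CPM. Of all tested genes, 13.0% were DEGs in this comparison. The part of these markers in the lower Pdgfrb was not tested. Fblim1 (r = 0.82) and Cspg4, a pericyte marker (0.81), were among the genes most like Pdgfrb over the libraries.

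Of 93 further genes of these pathways, 75 were tested and 20 were DEGs in at least 1 of the 7 comparisons between groups, beside 21.5% of all tested genes. The lists were written from general knowledge, with earlier results of these data known, and no list was tested as a whole. None of the 6 other FGF ligands with enough counts was a DEG, and 14 of the 20 listed ligands were below the filter. Among receptors and coreceptors, Fgfrl1, a decoy-like FGF receptor without a kinase domain, was lower in Ercc1Δ/- mice at 6 weeks (-0.51, SE 0.11, adjusted p = 0.0130), at 22 weeks on AL (-0.84, SE 0.12, adjusted p = 8.39e-05) and on DR (-0.74, SE 0.12, adjusted p = 1.32e-04). Its levels did not overlap between genotypes at any of the 3, with 113 to 147 CPM over all WT mice and 50.4 to 108 CPM over all mutants. The share of all tested genes without overlap was 2.87% at 6 weeks, 18.7% at 22 weeks on AL and 8.32% on DR. Fgfr4 was higher in the mutants on DR (1.62, SE 0.38, adjusted p = 0.00506), at single-mouse levels of 1.06 to 8.40 CPM against 0.97 to 2.75 CPM, on 1 to 13 counts per library.

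Some genes that FGF signalling is known to induce rose with age in the mutants. With age in Ercc1Δ/- mice, 3 of 15 tested feedback and target genes were higher and none lower, where 4.66% of all tested genes were DEGs, with a median log2 change of 0.33 over the 15 beside 0.01 over all tested genes. Etv4, an ETS transcription factor, rose most (2.30, SE 0.37, adjusted p = 3.67e-04), followed by Etv5 (0.89, SE 0.22, adjusted p = 0.0178) and Dusp6, a phosphatase that switches off ERK (0.69, SE 0.19, adjusted p = 0.0400). Etv4 stood at 7.05 to 12.0 CPM in AL-fed mutants of 22 weeks, on only 11 to 29 counts per library. It stood at 0.91 to 2.62 CPM in those of 6 weeks, on 3 to 8 counts, and at 1.87 to 3.80 CPM in WT mice of 22 weeks on AL. Against these WT mice Etv4 (1.64, SE 0.33, adjusted p = 0.00165) and Dusp6 (0.68, SE 0.20, adjusted p = 0.0283) were higher. These 2 of 15 genes are a share close to the 12.0% of all tested genes called there, and the median was 0.19 beside 0.03 over all.

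**Figure D4:**
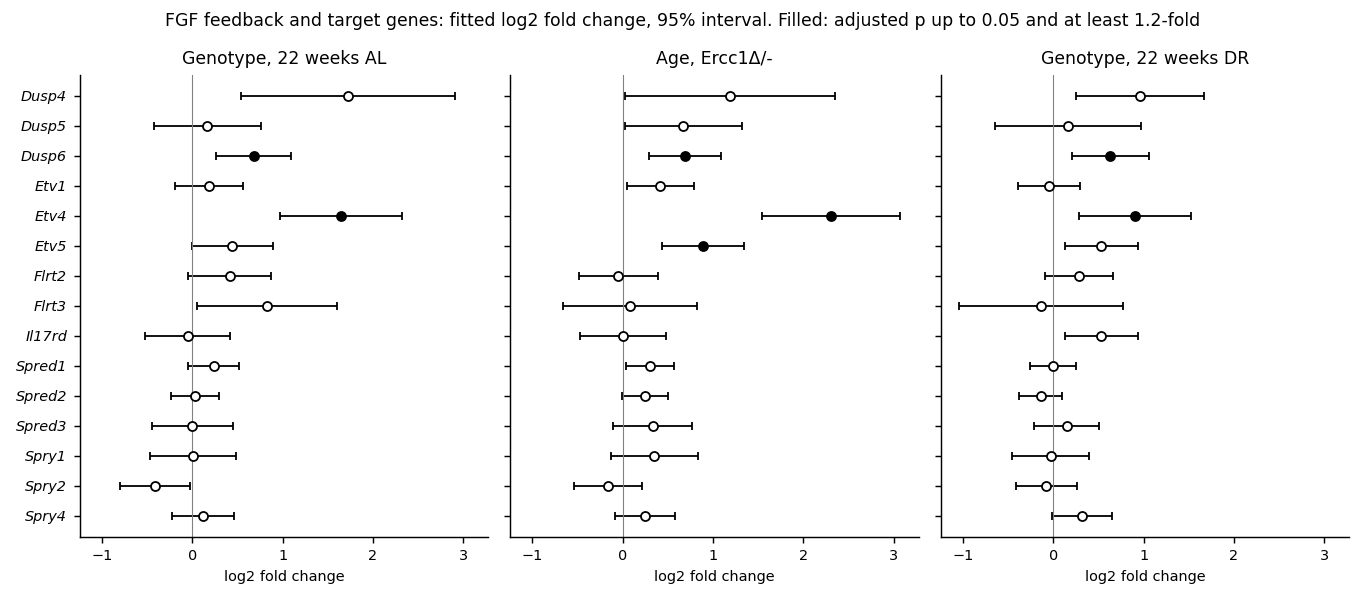
Fitted log2 fold change (x axis) with its 95% interval for the 15 tested FGF feedback and target genes (y axis) in 3 comparisons. Filled points passed an adjusted p of 0.05 and a 1.2-fold change: Etv4 and Dusp6 in all 3 panels and Etv5 with age in Ercc1Δ/- mice.

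On DR the same 2 of 15 genes, again close to the 13.0% of all tested genes, were higher in Ercc1Δ/- than in WT mice, Etv4 by 0.90 (SE 0.30, adjusted p = 0.0484) and Dusp6 by 0.63 (SE 0.21, adjusted p = 0.0458). Of 10 fits without 1 library, Etv4 kept its call without 021 or 029 and Dusp6 without 021 or 022. The other fits had adjusted p up to 0.223 and 0.138. Under 10 other alternatives of the processing, Etv4 kept its call in 3 and Dusp6 in 6. DR in Ercc1Δ/- mice gave no DEG among the 15 genes (Etv4 -0.76, SE 0.29, adjusted p = 0.198), with a median of -0.25. Etv4 was a DEG with age and with genotype on AL in each fit without 1 library. After thinning to the smallest library Etv4 fell below the filter on counts and had no test in either comparison. Etv5 lost its call with age without library 004 or 026 (adjusted p up to 0.118). Dusp6 kept its call with age without 013, 023 or 027 and lost it in 6 of 9 such fits (adjusted p up to 0.167), and it lost the call with genotype on AL without 004, 005, 018 or 020 (adjusted p up to 0.207). The difference in age change between genotypes did not pass for Etv4 (1.88, SE 0.54, adjusted p = 0.123). These genes also respond to other inputs of the ERK pathway.

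Among PDGF receptors and proteases, Pdgfra, the receptor for PDGF-A and PDGF-C and also a fibroblast marker, was higher in Ercc1Δ/- mice on DR (0.34, SE 0.11, adjusted p = 0.0463), a call kept without library 021 or 029 and lost in 8 of 10 fits without 1 library (adjusted p up to 0.131). Pcsk5, a proprotein convertase, was lower in the mutants at 22 weeks on AL (-1.12, SE 0.14, adjusted p = 2.00e-05), with 39.1 to 63.4 CPM against 101 to 142 CPM in WT mice, and on DR (-0.67, SE 0.13, adjusted p = 6.50e-04). It also fell with age in the mutants (-0.78, SE 0.14, adjusted p = 9.35e-04) and under DR in WT mice (-0.68, SE 0.12, adjusted p = 0.00253). Pdgfrl, a receptor-like protein, fell with age in the mutants (-1.07, SE 0.13, adjusted p = 9.79e-06). Plau, the plasminogen activator urokinase, fell under DR in the mutants (-1.31, SE 0.33, adjusted p = 0.0410), a call kept without library 013 or 022 and lost in 7 of 9 such fits (adjusted p up to 0.120).

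The heparan sulfate list, which covers the co-receptors of FGF ligands, gave 9 DEGs of 19 genes in at least 1 of the 7 comparisons, against 21.5% of all tested genes. Sdc3, a syndecan, was higher in Ercc1Δ/- mice at 22 weeks on AL (1.46, SE 0.24, adjusted p = 7.73e-04), at 249 to 319 against 67.9 to 123 CPM, and on DR (1.05, SE 0.15, adjusted p = 1.06e-04). Hspg2, which encodes perlecan, a basement membrane proteoglycan that binds Fgf2, was lower in both (-0.66, SE 0.13, adjusted p = 0.00118, and -0.54, SE 0.08, adjusted p = 7.74e-05). Gpc3, a glypican, was lower in the mutants on AL (-0.86, SE 0.22, adjusted p = 0.0134) and rose under DR in them (0.71, SE 0.14, adjusted p = 0.00840). Both Gpc3 calls were lost without the sex term, the first also after thinning and the second in the test against 1.2-fold. Sulf1, an enzyme that trims heparan sulfate and alters FGF binding, fell under DR in the mutants (-0.40, SE 0.09, adjusted p = 0.0173). Its levels were 448 to 506 CPM on AL and 333 to 377 CPM on DR. The Sulf1 call was lost without library 013 or 029 (adjusted p up to 0.0551). It was also lost with library 003 added, with all 6 groups or only the compared groups in the fit, and in the test against 1.2-fold. Over the 19 genes the median log2 change was 0.06 for genotype at 22 weeks on AL and -0.17 for DR in the mutants. For genotype on AL, 1 DEG was higher and 4 were lower, where 12.0% of all tested genes were DEGs. For DR in the mutants, 1 was higher and 1 lower, where 1.64% of all tested genes were DEGs.

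Of 24 shared signalling genes downstream of both families, 2 were DEGs in at least 1 of the 7 comparisons, beside 21.5% of all tested genes. Src, a kinase that PDGF receptors recruit, was lower in Ercc1Δ/- mice at 22 weeks on AL (-0.65, SE 0.12, adjusted p = 8.91e-04) and on DR (-0.82, SE 0.12, adjusted p = 5.78e-05). Plcg1, a phospholipase that binds activated receptors, was higher on DR (0.31, SE 0.10, adjusted p = 0.0464), a call kept without library 016 or 021 and lost in 8 of 10 such fits (adjusted p up to 0.127). The RAS, RAF and MAP kinase genes of the list were DEGs in no comparison between groups.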

How the data were processed

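RNA-seq of the aortic arch gave gene counts that the authors deposited as 1 table. They built UMI-tagged, directional libraries, aligned reads with STAR 2.7.10a to mm39 (Ensembl), removed duplicates with UMI-tools 1.1.2 and counted with HTSeq 2.0.2. The strand setting of the counting is not given in the sources used here. The 5 summary lines of HTSeq, 12.6% to 18.7% of each library's reads, were left out.

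A gene was tested if over 10 of the 28 libraries held over 10 counts, with edgeR 4.0.16 (quasi-likelihood, TMM factors, terms for group and sex; R 4.3.3), in 1 fit over the 18 AL libraries and 1 over the 18 libraries of 22 weeks. P-values were adjusted over all 12353 tested genes by Benjamini-Hochberg. Interactions had no fold limit. Each library came from another mouse, and pairs of libraries within groups differed by more than counting noise (chi-square per degree of freedom 2.31 to 22.9).

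The 9 genes, the pathway lists and the alternatives were chosen with earlier results of these data known. Named genes are the 9, DEGs of the pathway lists, genes overlapping the 9, Ercc1, and the genes most like each of the 9 (5 for Fgf2, 3 for the others, of which 1 is not reported here). Alternatives were DESeq2 1.42.0, RLE factors, no filter, no sex term, library 003 added, other groups in the fit, another dispersion method, a test against 1.2-fold (glmTreat), thinning to 921167 counts, and each library left out. Scripts were tested on simulated data.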

Additional observations from a re-analysis of the deposited data

Results flagged for a closer look

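Among 54 sets of values (9 genes in 6 groups), 4 had a library far from the rest of its group by Dixon's test, which chance alone does for about 1 in 20 sets. In Ercc1Δ/- mice on DR, library 016 was highest for Fgf1, at 62.7 CPM, and for Fgfr1, at 470.3 CPM. In WT mice of 6 weeks, library 009 was lowest for Pdgfc, at 28.9 CPM. In Ercc1Δ/- mice of 6 weeks, library 015 was highest for Pdgfrb, at 486.3 CPM.

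The change of Pdgfc with age differed between Ercc1Δ/- and WT mice by 0.74 on the log2 scale in the test of the interaction (edgeR, adjusted p = 0.0458). This call was kept in only 4 of 18 fits that left out 1 library (adjusted p up to 0.159). It was also lost without a filter, with library 003 added and after thinning.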

How the results depend on the processing

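Of 1994 tested values of the 9 genes under alternatives, 1937 kept their side of the threshold, 52 lost a call and 5 gained one. No called value changed sign, but 96 uncalled ones did, as did 3 of 148 values of Fgf2 that carry no test. Among 8 tested genes, DESeq2 gave 1 DEG for genotype at 6 weeks in place of 0 (378 and 211 DEGs over all genes). The test against 1.2-fold left 1 DEG for genotype at 22 weeks on AL, 1 for age in Ercc1Δ/- mice, 1 for genotype on DR and 0 for sex at 22 weeks. Thinning left 1, 1, 2 and, for the genotype by age interaction, 0. Adding library 003 left 1 for age in Ercc1Δ/- mice, 2 for genotype on DR and 0 for the interaction, which was also 0 without a filter. A fit over all 6 groups gave 0 for sex. The 20 pathway DEGs became 9 and 13 under the 1.2-fold test and thinning.

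With 1 library left out, the 8 tested genes gave 0 to 1 DEGs for genotype at 6 weeks, 2 to 3 at 22 weeks on AL, 1 to 3 for age in Ercc1Δ/- mice, 0 to 1 for the interaction and 3 to 4 on DR, and the pathway lists 16 to 21. Over all genes, the 1.2-fold test gave 696, 240 and 601 DEGs and thinning 671, 311 and 931, in place of 1486, 576 and 1601, for genotype on AL, age in the mutants and genotype on DR. The causes were not tested, except that thinning tested fewer genes (9619). No paired analysis was possible because each mouse gave 1 library and the groups share no replicate numbers.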
